A study of Mus musculus with 10 samples.

Results

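Dual-colour array comparative genomic hybridisation was analysed at 2 densely tiled mouse intervals, those of Grik2 on chromosome 10 and Epha7 on chromosome 4, in 10 BCR-ABL1 leukemias. Members were all non-control probes placed in mm9 within chr10:48790000-49560000 (Grik2, 770 kb) or chr4:28700000-28980000 (Epha7, 280 kb). There were 2507 Grik2 and 1008 Epha7 probes, 3515 of 402346 placed probes in all. The intervals were selected on these log2 ratios, those of all 10 arrays within the genes and beside them, so each interval's level, its difference from the flanks and the difference of both between genotypes are given as a description, with no p-value. The files name probes by position only and no mm9 gene annotation was used here, so exons, introns and UTRs within the intervals were not assigned.

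Of the 10 tumours, 5 were Ikzf1+/+ and 5 Ikzf1+/-, where Ikzf1 encodes Ikaros, a transcription factor of lymphoid development. All were primary BCR-ABL1 tumours, named for a fusion kinase that drives this leukemia, and their DNA came from GFP+ leukemic bone marrow cells. The design text and labels describe the reference DNA as stage-matched non-leukemic bone marrow and as B220+ B cells. Each array paired tumour DNA in Cy5 with reference DNA in Cy3, so its log2 ratio is 0 where both hold the same copy number, and a loss of 1 of 2 copies in every tumour cell would give -1. The sources used here do not give the animals' age or strain, the piece of Ikzf1 removed, whether the tumours of a genotype came from separate animals, or whether the arrays shared 1 reference DNA. Spreads and p-values therefore measure the variation between these samples, which may in part be technical. The copy number of Ikzf1 itself was not analysed here, so the genotype labels were not checked against it.

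Grik2 encodes a subunit of kainate receptors, the ion channels through which glutamate excites neurons. Epha7 encodes a receptor tyrosine kinase of the Eph family, which binds ephrin-A ligands on neighbouring cells and guides axons and tissue boundaries. In humans both genes lie on the same chromosome arm, whose deletion recurs in lymphoid leukemias and lymphomas.

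Neither interval came near the level of a lost copy in any of the 10 tumours, the lowest mean being -0.222. Both intervals lay slightly below 0 along their whole length in the 5 Ikzf1+/+ tumours and close to 0 in the 5 Ikzf1+/- tumours. The Grik2 interval averaged -0.116 ± 0.034 in Ikzf1+/+ and -0.0134 ± 0.0087 in Ikzf1+/- tumours (log2 ratio, mean ± SD, n = 5 each). The Epha7 interval averaged -0.148 ± 0.048 in Ikzf1+/+ and -0.0188 ± 0.020 in Ikzf1+/- tumours. DNA around both genes was low in the Ikzf1+/+ tumours as well. With another processing of the signals (normexp, on median signals) the Grik2 difference turned its sign and the Epha7 difference shrank to 0.030.

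Tiling gave each locus far more probes than the rest of the genome. Grik2 probes started a median of 215 bp apart and Epha7 probes 220 bp apart, against 5343 bp over all 382487 autosomal probes. Most were 60 bases long, 79.9% at Grik2 and 73.1% at Epha7, against 86.1% of autosomal probes. Probes in both intervals were dim, with a median reference (Cy3) intensity of 136 at Grik2 and 148 at Epha7, against 170 over the autosomes. The dimmest 5% of autosomal probes by that intensity included 29.5% of Grik2 and 23.3% of Epha7 probes. At Grik2 2082 of 2507 probes (83.0%), and at Epha7 850 of 1008 (84.3%), were unsaturated and well above background in both channels on all 10 arrays, against 98.3% of autosomal probes.

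At Grik2, the mean log2 ratio over the interval was -0.169, -0.097, -0.121, -0.078 and -0.117 in Ikzf1+/+ tumours 1 to 5. It was -0.011, -0.0096, -0.017, -0.0036 and -0.027 in Ikzf1+/- tumours 1 to 5. Every Ikzf1+/+ tumour lay below every Ikzf1+/- tumour, and Ikzf1+/+ tumour 1 was the lowest of all. Ikzf1+/- tumours were higher by 0.103 on average. Ikzf1+/+ tumour 5 and Ikzf1+/- tumour 1, the only tumours of different genotype on 1 slide, differed by 0.106. The other slides each held a single genotype, so for them slide and genotype cannot be told apart.

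At Epha7, the interval averaged -0.222, -0.104, -0.147, -0.109 and -0.157 in Ikzf1+/+ tumours 1 to 5. The Ikzf1+/- tumours gave 0.0015, -0.041, -0.014, -0.0027 and -0.038. Again the genotypes did not overlap, and Ikzf1+/+ tumour 1 was again lowest. The difference between the genotype means was 0.129, and 0.159 on the shared slide. Below 0 lay 69.8% ± 5.7 of Epha7 probes in Ikzf1+/+ tumours and 54.0% ± 2.8 in Ikzf1+/- tumours, where centring puts 50% of autosomal probes. The same shares at Grik2 were 64.1% ± 4.5 and 51.5% ± 1.4 (SD, n = 5 each).

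The red channel differed between the genotypes in the same direction. The median tumour (Cy5) intensity over Grik2 probes was 88.3 ± 23.1 in Ikzf1+/+ and 168 ± 9.1 in Ikzf1+/- tumours, while the reference (Cy3) gave 142 ± 5.0 and 129 ± 6.6. Over Epha7 probes Cy5 gave 96.3 ± 26.2 and 185 ± 9.8, and Cy3 156 ± 5.3 and 142 ± 7.4. Over all autosomal probes the Cy5 medians were 121 ± 33.9 and 220 ± 10.1. In Cy5, 9.75% ± 2.8 of Grik2 probes were not well above background in Ikzf1+/+ tumours, against 3.14% ± 0.61 in Ikzf1+/- tumours, and Epha7 gave 9.25% ± 2.2 against 3.17% ± 0.65. Over all autosomal probes the same shares were 0.702% ± 0.29 and 0.168% ± 0.037, so the genotypes differed across the arrays as well. The part of these signal levels in the ratio difference was not tested.

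**Figure D1:**
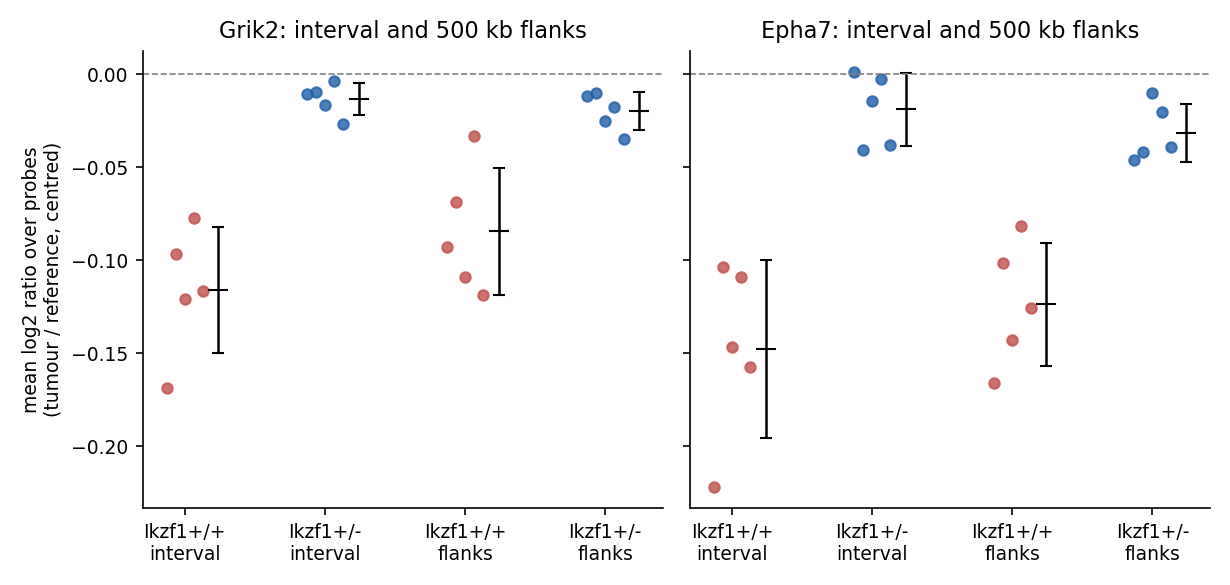
Mean log2 ratio of tumour over reference (vertical axis) over the Grik2 or Epha7 interval and over its flanks within 500 kb, one point per tumour, with the mean and SD of 5 beside the points. All Ikzf1+/+ points of both intervals lie below all Ikzf1+/- points, and the Ikzf1+/+ flanks lie low as well, at -0.084 around Grik2 and -0.124 around Epha7 on average.

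The flanks moved with the genes. Over the 314 probes within 500 kb of the Grik2 interval the mean was -0.093, -0.068, -0.109, -0.033 and -0.119 in Ikzf1+/+ tumours 1 to 5. The same flanks gave -0.012, -0.010, -0.025, -0.018 and -0.035 in Ikzf1+/- tumours. Ikzf1+/+ tumour 4 thus overlapped the Ikzf1+/- tumours in the Grik2 flanks and not in the interval. Over the 275 probes flanking Epha7 the mean was -0.166, -0.102, -0.143, -0.082 and -0.126 in Ikzf1+/+ and -0.046, -0.042, -0.010, -0.020 and -0.039 in Ikzf1+/- tumours, with no overlap. Probes were spread unevenly, with 163 in the 100 kb window left of Epha7, so the mean leans towards DNA close by. The left and right Epha7 flanks averaged -0.118 and -0.138 in Ikzf1+/+ and -0.021 and -0.057 in Ikzf1+/- tumours. In Ikzf1+/- tumour 1, on the shared slide, they were -0.020 and -0.108.

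Taking the flanks away left a smaller difference at both genes. Flanking probes were dim too: the dimmest 5% of autosomal probes included 19.1% of those around Grik2 and 17.5% of those around Epha7. Grik2 minus its flanks was -0.076, -0.028, -0.012, -0.044 and 0.0023 in Ikzf1+/+ tumours, and 0.00093, 0.00065, 0.0083, 0.014 and 0.0081 in Ikzf1+/- tumours. Ikzf1+/+ tumour 5 overlapped the Ikzf1+/- values, and the means differed by 0.038. On the shared slide the difference was -0.0013. Epha7 minus its flanks was -0.056, -0.0020, -0.0038, -0.027 and -0.031 in Ikzf1+/+ tumours, and 0.048, 0.0011, -0.0044, 0.018 and 0.0014 in Ikzf1+/- tumours. These values overlapped as well, with a difference of 0.037 and 0.079 on the shared slide. These small differences depended on the processing. After normexp background correction Grik2 less its flanks turned to -0.070 and Epha7 less its flanks fell to 0.0018. With loess they were 0.025 and 0.033, and with only the probes well above background 0.025 and 0.012.

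Farther out, the Ikzf1+/+ means lay closer to 0 from 2 Mb on, though not evenly. Around Grik2 the Ikzf1+/+ mean was -0.086 ± 0.025 at 0.5 to 1 Mb, -0.078 ± 0.016 at 1 to 2 Mb, -0.038 ± 0.018 at 2 to 5 Mb, 0.0022 ± 0.011 at 5 to 10 Mb and, lower again, -0.027 ± 0.013 at 10 to 20 Mb (SD, n = 5). Around Epha7 it was -0.105 ± 0.026, -0.087 ± 0.031, -0.021 ± 0.011, -0.054 ± 0.017 and 0.026 ± 0.015 at the same distances. The Ikzf1+/- means stayed between -0.040 and 0.0053 in every such ring out to 20 Mb around both genes. The rings differed in brightness too. From 0.5 Mb out, the median Cy3 intensity was 141, 148, 162, 187 and 162 around Grik2 and 134, 145, 158, 150 and 174 around Epha7. The part of brightness in the change with distance was not tested. The whole chromosomes did not carry the shift: the median over chromosome 10 was -0.018 ± 0.011 and that over chromosome 4 was -0.0044 ± 0.0096 in Ikzf1+/+ tumours.

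**Figure D2:**
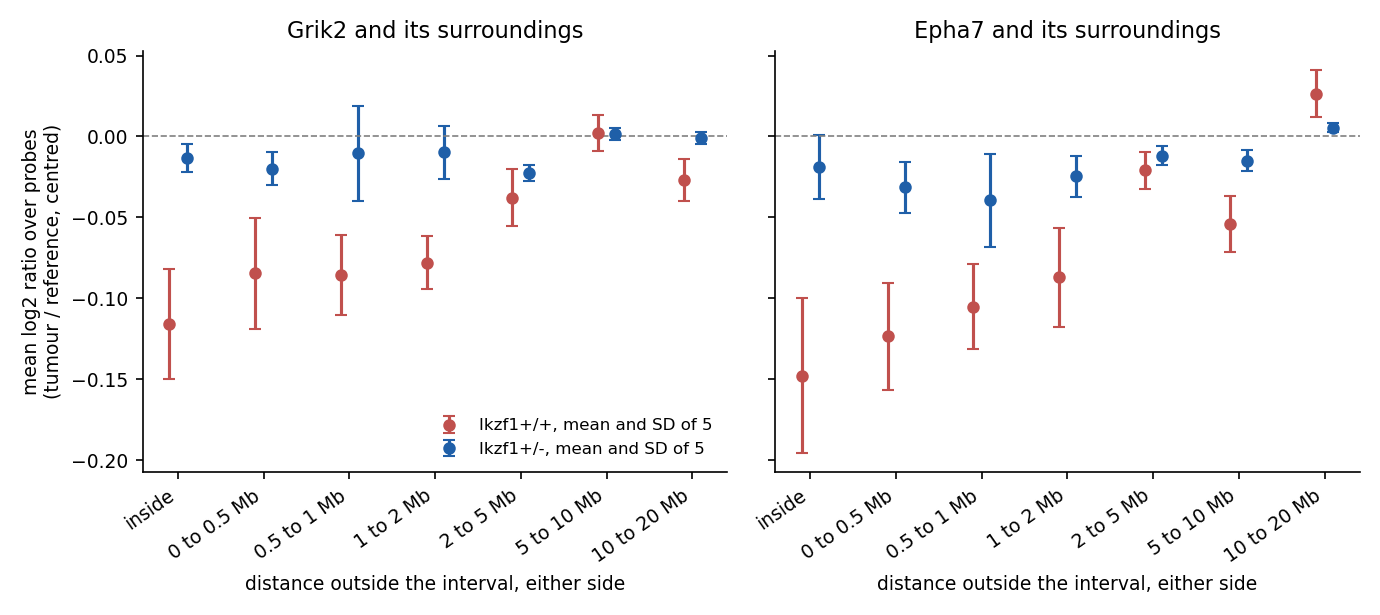
Mean log2 ratio of tumour over reference (vertical axis) inside each interval and in rings of growing distance on either side, with the mean and SD over 5 tumours of each genotype. Around Grik2 the Ikzf1+/+ means run from -0.116 inside to -0.038 at 2 to 5 Mb, while the Ikzf1+/- means stay near 0.

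Within each interval the shift ran through the whole length, at varying levels. In bins of 50 kb, the Ikzf1+/+ mean of Grik2 ran from -0.135 to -0.072 over 16 bins and that of Epha7 from -0.154 to -0.136 over 6 bins. All 16 Grik2 bins and all 6 Epha7 bins lay below 0 in each of the 5 Ikzf1+/+ tumours. In single Ikzf1+/+ tumours the Grik2 bins ran from -0.225 to -0.032 and the Epha7 bins from -0.249 to -0.075. Ikzf1+/- means ran from -0.039 to 0.014 at Grik2 and from -0.032 to -0.0019 at Epha7. No 50 kb stretch of either gene came near -1 in any tumour. The highest Grik2 bin of both genotypes was the bin from 49490000 to 49539999, with -0.072 ± 0.047 for Ikzf1+/+ and 0.014 ± 0.012 for Ikzf1+/- tumours.

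**Figure D3:**
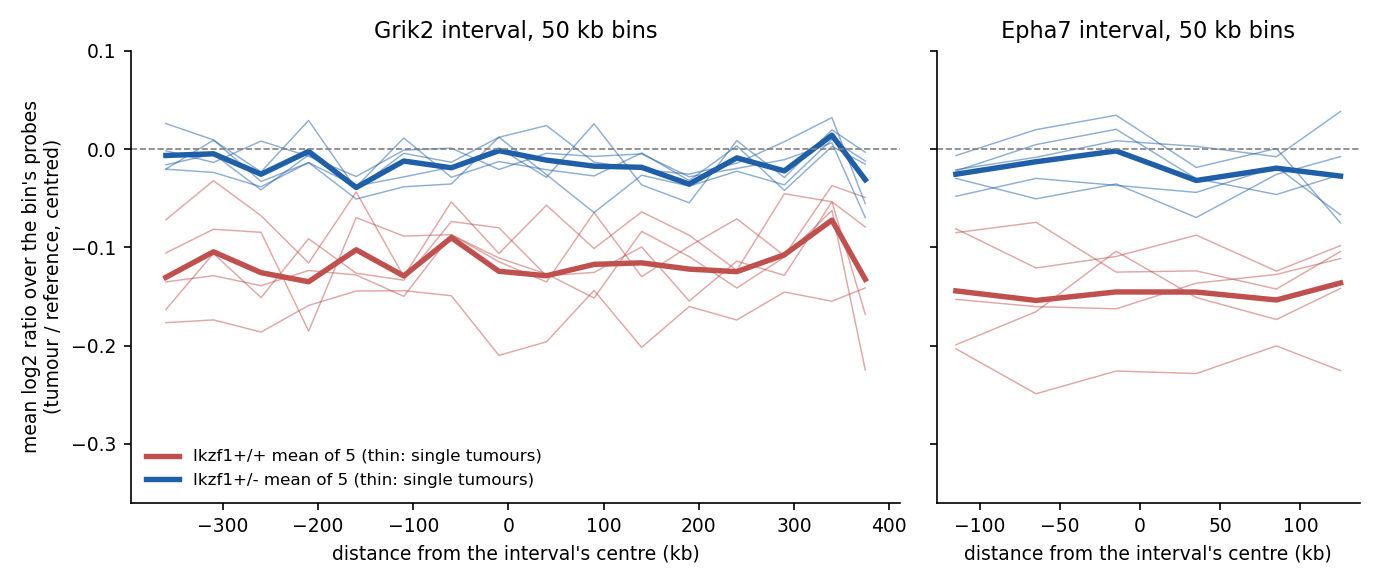
Mean log2 ratio of tumour over reference in 50 kb bins (vertical axis) against distance from the centre of the Grik2 or Epha7 interval in kb. Thin lines are single tumours and thick lines means of 5; the Ikzf1+/+ lines run below 0 along the whole of both genes, with no bin under -0.249.

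In windows of 100 kb fitted over all autosomes with limma, no window overlapping Grik2 (0 of 9) or Epha7 (0 of 4) passed an adjusted p of 0.05 between genotypes. Of all 23426 windows 5 passed (0.0213%). At an unadjusted p under 0.05 the fit held 8 of 9 Grik2 and 4 of 4 Epha7 windows, against 16.6% of all windows. The fitted difference was above 0, higher in Ikzf1+/-, in 9 of 9 Grik2 and 4 of 4 Epha7 windows, against 56.2% of all windows. Its median was 0.097 at Grik2 and 0.124 at Epha7, beside 0.0092 over all windows. After normexp 2 of 9 Grik2 windows were above 0, with a median of -0.013, and 4 of 4 Epha7 windows, with a median of 0.025, against 57.5% of all windows. None of these windows (0 of 9 and 0 of 4) then had an unadjusted limma p under 0.05. The fit covers every autosomal window, but the intervals were selected on the same ratios. These counts, and the p-values of the single windows given next, are therefore a description and no independent support. The difference was smallest at the left edge of Grik2, 48700001 to 48800000, at 0.047 ± 0.029 (SE, limma adjusted p = 0.420). In the other Grik2 windows it ran from 0.084 ± 0.025 at 49500001 to 49600000 (limma adjusted p = 0.159) to 0.118 ± 0.028 at 48800001 to 48900000 (limma adjusted p = 0.122). The window at 49500001 reaches past the interval's end at 49560000. In the windows overlapping Epha7 it ran from 0.106 ± 0.024 at 28600001 to 28700000 (limma adjusted p = 0.122) to 0.13 ± 0.031 at 28700001 to 28800000 (limma adjusted p = 0.122). The window at 28600001 shares only its last base with the interval, whose first probe starts at 28700117. It is counted among the 4 Epha7 windows but holds flanking DNA and none of the interval's probes.

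The remaining Grik2 windows from 48900001 to 49500000 differed by 0.093 to 0.114 with adjusted p from 0.111 to 0.135 in limma. The other Epha7 windows, 28800001 to 28900000 and 28900001 to 29000000, differed by 0.129 and 0.120 (limma adjusted p = 0.122 and 0.111). The intervals were selected on the same ratios, so these p-values and the counts that follow are a description too. All 5 Ikzf1+/- tumours lay above all 5 Ikzf1+/+ tumours in 12 of these 13 windows, against 2.62% of all windows. The exception was the left edge of Grik2, and the 12 include the window at 28600001 beside Epha7. A difference as high as that of the Epha7 window at 28700001 was exceeded by 2.50% of all autosomal windows, and that of the Grik2 window at 48800001 by 3.68%. Elsewhere on the autosomes 204 windows held at least 100 probes, with a median difference of -0.0039, quartiles of -0.033 and 0.022, and 17 windows with all Ikzf1+/- tumours higher. The median reference intensity was 193 in those windows and 145 in the 13 windows overlapping the Grik2 and Epha7 intervals.

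Among single probes, 3 of 2507 at Grik2 and 1 of 1008 at Epha7 passed an adjusted p of 0.05 in limma, where 338 of 382486 autosomal probes did (0.0884%). Of these, 2 Grik2 probes and the Epha7 probe were higher in Ikzf1+/- tumours, against 0.0178% of autosomal probes. The other Grik2 probe was lower, against 0.0706%. At an unadjusted p under 0.05 the fit held 369 Grik2 and 165 Epha7 probes, against 8.53% of autosomal probes. Its difference was above 0 in 1795 Grik2 (71.6%) and 795 Epha7 probes (78.9%), against 50.5% of autosomal probes. After normexp it was above 0 in 994 Grik2 (39.6%) and 499 Epha7 probes (49.5%), against 51.1% of autosomal probes. With normexp 18 Grik2 and 13 Epha7 probes passed the adjusted p, against 0.555% of autosomal probes. Of these, 17 Grik2 and all 13 Epha7 probes were higher in Ikzf1+/- tumours, as were 1591 of the 2121 autosomal probes that passed. All 5 Ikzf1+/- tumours lay above all 5 Ikzf1+/+ tumours at 41 of 2506 Grik2 probes and 31 of 1007 Epha7 probes with a value on every array, against 0.760% of such autosomal probes. As with the windows, the intervals were selected on the same ratios. These counts, and the p-values of the single probes named next, are therefore a description and no independent support.

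The Epha7 probe A_67_P00838879, at chr4:28824759-28824818, gave -1.12, -0.63, -0.50, -0.43 and -1.21 in Ikzf1+/+ and 0.27, 0.63, 0.29, 0.57 and 0.46 in Ikzf1+/- tumours. The genotypes did not overlap, and the difference was 1.22 ± 0.15 (SE, limma adjusted p = 0.00293). It is a dim probe, with a mean Cy3 intensity of 40.8, and its Cy5 was not well above background on 4 of 10 arrays. The adjacent probes averaged 0.13 and 0.18 over the 10 arrays.

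At Grik2, probe A_67_P16665118, at chr10:48891147-48891197, went the other way. It gave 1.46, 0.72, 0.11, 1.65 and 0.60 in Ikzf1+/+ and -0.58, -0.64, -0.48, -0.34 and -0.56 in Ikzf1+/- tumours, a difference of -1.43 ± 0.21 (SE, limma adjusted p = 0.0124). This 51-base probe was bright (mean Cy3 intensity 294) and above background on every array, and its neighbours averaged -0.048 and 0.13. Probe A_67_P02121159, at chr10:49199558-49199617, gave a difference of 1.17 ± 0.18 (SE, limma adjusted p = 0.0128), but was not well above background in either channel on any of the 10 arrays. Probe A_67_P02120795, at chr10:48913276-48913335, averaged -0.35 ± 0.14 over Ikzf1+/+ and 0.18 ± 0.072 over Ikzf1+/- tumours (SD, n = 5 for both) and so differed by 0.53 (limma adjusted p = 0.0393). Its neighbours averaged -0.14 and -0.11.

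Each array was also cut into segments of even level, and a segment of at least 5 probes with an absolute mean of at least 0.3 was called. At that limit the called segments were tiny: 6 at Grik2, of 603 to 1457 bp, and 5 at Epha7, of 975 to 4313 bp. With a limit of 0.2 the longest Epha7 call was a loss of 667 kb in Ikzf1+/+ tumour 1, with 873 probes at -0.22. The longest Grik2 call was then 33.4 kb. What follows is for the limit of 0.3. At Grik2 calls lay in 5 tumours, 4 of them Ikzf1+/+, and at Epha7 in 4, of which 3 were Ikzf1+/+. No position was called in more than 1 tumour. The limit of 0.3 was the same on every array, while single probes spread more in Ikzf1+/+ tumours. The SD over autosomal probes averaged 0.245 in Ikzf1+/+ and 0.198 in Ikzf1+/- tumours. Over Grik2 probes it averaged 0.338 and 0.266, and over Epha7 probes 0.325 and 0.274. The part of this spread in the calls was not tested. Called losses held 28 Grik2 probes (1.12%) and 41 Epha7 probes (4.07%), against 0.733% of autosomal probes in a called loss of at least 1 array. These segments are described with no test, because the ratios that define them also entered the choice of the intervals.

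Among the Grik2 losses, the one with the most probes was in Ikzf1+/+ tumour 2 at 48823387 to 48824843, with 8 probes at -0.65, where the other tumours averaged -0.16. That tumour also had 5 probes at -0.91 at 48882079 to 48882681, where the others ranged from -0.82 to 0.26. Ikzf1+/+ tumour 1 lay at -0.79 over 48891861 to 48892529, tumour 4 at -0.72 over 49358496 to 49359503 and tumour 5 at -0.80 over 48817883 to 48818793, each with 5 probes. The Grik2 gain was in Ikzf1+/- tumour 1 at 49503740 to 49504591, with 5 probes at 0.44. No Grik2 loss was called in an Ikzf1+/- tumour. Even so, 5 consecutive probes averaged -0.83 in Ikzf1+/- tumour 5 at 48882222 to 48882853, overlapping the call of Ikzf1+/+ tumour 2 at 48882079.

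At Epha7, the longest call was in Ikzf1+/+ tumour 5 at 28931121 to 28935433, with 19 probes at -0.43, where the other tumours averaged -0.12 and ranged from -0.33 to 0.029. Ikzf1+/+ tumour 3 had losses of 5 probes at -0.90 (28736510 to 28737918) and 7 probes at -0.76 (28831038 to 28832705). The lowest mean, -1.07 over 5 probes, was in Ikzf1+/+ tumour 1 at 28752377 to 28753351, where the other tumours averaged -0.050. In Ikzf1+/- tumour 1, 5 probes at 28969838 to 28970855 averaged -0.48. The 11 calls sat on dim probes, with a median Cy3 intensity between 49.0 and 123 in each. In the Epha7 loss at -1.07, 5 of 5 probes were not well above background in Cy5.

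Longer segments across the genes stayed small in level. The longest segment overlapping Epha7 in Ikzf1+/+ tumours 1 to 5 had a mean of -0.22, -0.086, -0.13, -0.10 and -0.14 and ran for 0.667, 13.6, 1.26, 3.01 and 3.40 Mb. In Ikzf1+/- tumours 2, 4 and 5 a single segment held all of Epha7 and ran for 15.6, 35 and 11.9 Mb at -0.036, -0.013 and -0.041. The 3.01 Mb segment of Ikzf1+/+ tumour 4 held all of Epha7 too. Ikzf1+/+ tumours 1, 2, 3 and 5 had 3, 3, 5 and 3 segments there, and Ikzf1+/- tumours 1 and 3 had 3 and 5. At Grik2 a single segment held the whole interval in Ikzf1+/- tumours 2 to 5, running for 56.1, 56.1, 37.0 and 56.0 Mb at -0.0069, -0.0072, -0.0065 and -0.017. None of the 5 Ikzf1+/+ tumours had Grik2 in a single segment, nor did Ikzf1+/- tumour 1, which had 3. The longest segments overlapping Grik2 in Ikzf1+/+ tumours 1 to 5 averaged -0.17, -0.065, -0.099, -0.0059 and -0.11.

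The shift was largest in the dimmest probes. Autosomal probes were put in 5 classes of mean Cy3 intensity, and the same limits were applied at the genes. In the dimmest class, under 100.02, the 739 Grik2 probes averaged -0.214 ± 0.043 in Ikzf1+/+ and -0.031 ± 0.011 in Ikzf1+/- tumours. The 235 dimmest Epha7 probes averaged -0.268 ± 0.071 and -0.034 ± 0.036, and the 19125 dimmest autosomal probes -0.079 ± 0.019 and -0.015 ± 0.0047 (SD, n = 5 each). In the brightest class, over 210.002, the 357 Grik2 probes averaged -0.061 ± 0.040 and -0.020 ± 0.013, and the 181 Epha7 probes -0.096 ± 0.059 and -0.012 ± 0.013. Ikzf1+/+ means were thus lowest in the dimmest class at both genes and below 0 in all 5 classes. Differences in the classes between the dimmest and the brightest ran from 0.062 to 0.10 at Grik2 and from 0.086 to 0.120 at Epha7. Ikzf1+/+ means in those classes were close together, from -0.083 to -0.074 at Grik2 and from -0.118 to -0.114 at Epha7. Over all autosomal probes the differences above the dimmest class were 0.017, 0.0012, -0.0074 and -0.012, from dim to bright.

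**Figure D4:**
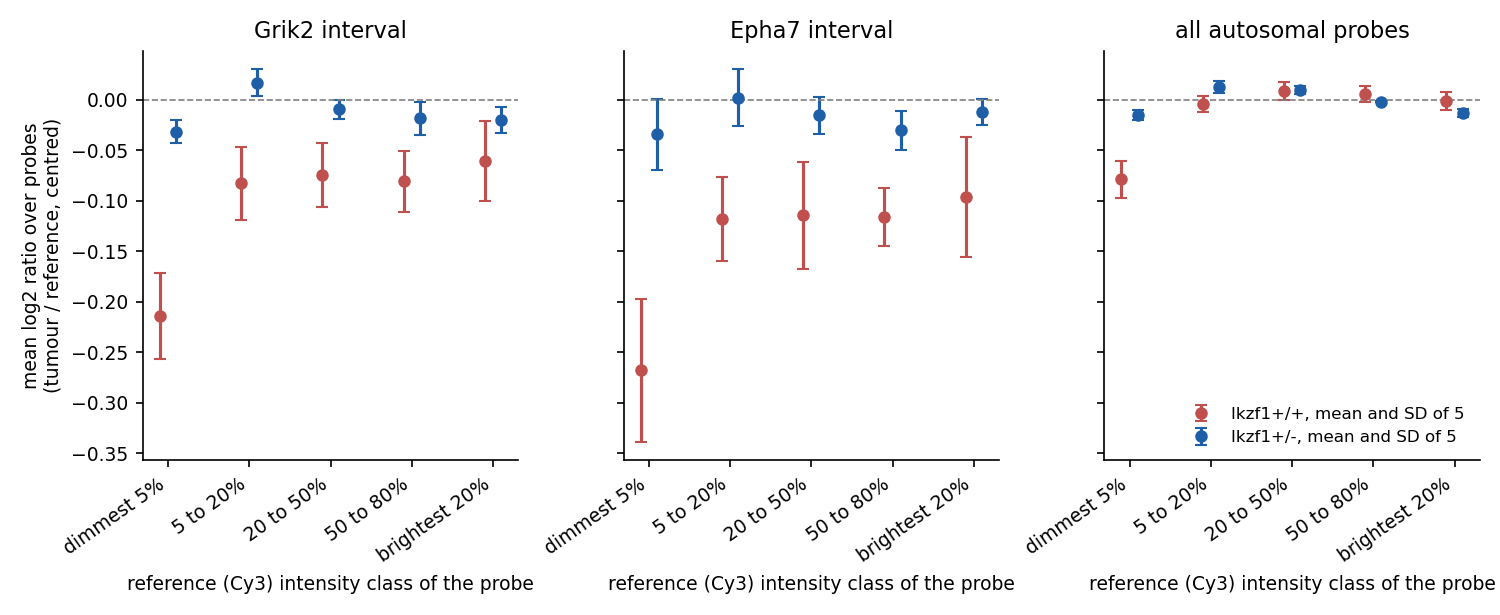
Mean log2 ratio of tumour over reference (vertical axis) by class of the probes' mean reference intensity, for Grik2, Epha7 and all autosomal probes, with the mean and SD of 5 tumours per genotype. Class limits are percentiles of autosomal probes; the dimmest class of Epha7 lies at -0.268 in Ikzf1+/+ tumours and that of all autosomes at -0.079.

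The level of both genes depended on the background correction. With normexp, which models background in each channel instead of using the scanner software's processed signal, Grik2 averaged -0.012, 0.0064, -0.065, 0.017 and -0.060 in Ikzf1+/+ tumours 1 to 5. The Ikzf1+/- tumours gave -0.047, -0.037, -0.044, -0.053 and -0.063, and the genotypes overlapped. The Grik2 difference turned to -0.026. Epha7 kept its direction under normexp with a smaller difference, 0.030, and its genotypes overlapped too. It averaged -0.083, -0.025, -0.080, -0.033 and -0.081 in Ikzf1+/+ and -0.012, -0.044, -0.022, -0.033 and -0.045 in Ikzf1+/- tumours. Under normexp none of the 11 short calls remained, 4 others were called at Grik2 and 0 at Epha7. With loess the interval differences stayed at 0.074 for Grik2 and 0.106 for Epha7.

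**Figure D5:**
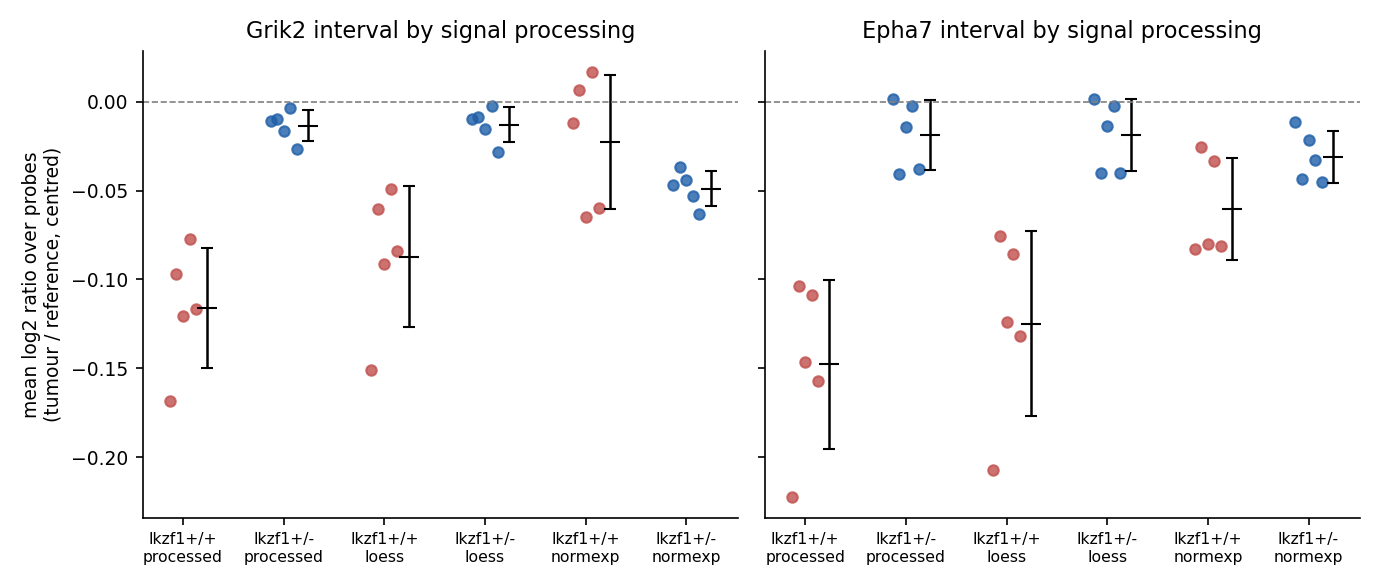
Mean log2 ratio of tumour over reference (vertical axis) over the Grik2 and Epha7 intervals from the processed signals, after loess within each array and after normexp background correction, one point per tumour with the mean and SD of 5. Genotypes are apart with processed and loess values and overlap with normexp, where Grik2 in Ikzf1+/+ tumours ranges from -0.065 to 0.017.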

How the data were processed

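Arrays of 5 Ikzf1+/+ and 5 Ikzf1+/- tumours were grouped by the labels. Per the labels' protocols, DNA was extracted with phenol and chloroform and 1.5 µg was labelled with a ULS kit; no dyes were swapped, so a dye effect common to the arrays stays in each ratio. The deposited scanner files hold Cy5 and Cy3 intensity per spot, including a signal processed by the scanner software, and its log10 ratio of Cy5 over Cy3. The scanner software was Agilent Feature Extraction, 10.5.1.1 in the submitters' processing notes and 10.7.3.1 in the file headers, which also give build mm9. The authors' deposited series matrix holds log2 values; set against the scanner's log ratio they had a slope of 1.00 on each array, the same direction and column medians from -0.019 to -0.00060, so they were not centred further.

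From the processed intensities, log2 of Cy5 over Cy3 was taken per spot, outlier spots were dropped, repeated spots were combined by their mean, and the autosomal median of an array was subtracted from its values. One probe of each gene lacked a value on some array and was kept. Flanks were the probes within 500 kb. Exact permutation tests of the interval values between genotypes (scipy 1.17.1) had been planned. Their p-values are not given, because the intervals were selected on the same ratios. Autosomal probes, and 100 kb windows with at least 3 probes, were fitted with limma 3.58.1 (lmFit and eBayes, R 4.3.3) with Benjamini-Hochberg adjustment over all of them at 0.05. Segments came from penalised least-squares change points (at least 3 probes, penalty 2 times noise variance times the natural log of the probe number). Limma and segmentation were tested on simulated data. In windows simulated with the spreads of these data, limma called 6% of true differences of 0.1, 44% of 0.15 and 94% of 0.3. A window that did not pass could thus still differ by an amount like those at Grik2 and Epha7. Precision is limited by the number of arrays.

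The members, gene lists and tests were chosen with earlier results of these data known. Named probes are those that passed the probe fit, and each window overlapping an interval is given. Alternatives were normexp (offset 50, on median signals), loess, series matrix values, no centring, medians over probes, outlier spots kept, only probes above background, other call thresholds, 1 Mb flanks, slide and replicate blocks, and leaving out each array. Omitting the dimmest 5% of probes was added after seeing the data. A planned comparison of glutamate receptor and Eph family genes was not made, because no mm9 gene annotation was used here.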

Additional observations from a re-analysis of the deposited data

Results flagged for a closer look

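Both genotypes were measured against reference DNA, and 4 values at these genes are listed here for the gap between the genotypes (Ikzf1+/- minus Ikzf1+/+, n = 5 each). The Grik2 interval differed by 0.103 and the Epha7 interval by 0.129. Less the flanks, Grik2 differed by 0.038 and Epha7 by 0.037. The intervals were selected on the same ratios, so these gaps are a description. After normexp the 4 values were -0.026, 0.030, -0.070 and 0.0018, so both Grik2 gaps changed sign and both Epha7 gaps shrank. No tumour stood apart by Dixon's criterion in any of 16 groups of 5 values examined at both genes (0 of 16), where chance alone would mark about 1 in 20.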

How the results depend on the processing

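The interval differences between genotypes kept their direction, at 0.071 to 0.123 for Grik2 and 0.096 to 0.15 for Epha7, with loess, series matrix values, no centring, medians, outlier spots kept and only probes above background. Normexp changed them: Grik2 to -0.026 and Epha7 to 0.030, and the values less flanks to -0.070 and 0.0018. Less flanks, the difference also shrank with loess (0.025 and 0.033), with only probes above background (0.025 and 0.012), without the dimmest 5% (0.025 and 0.015, added after seeing the data), and for Epha7 with medians (0.020); the cause was not tested. The replicate block, the mean over the 5 same-numbered pairs, gave by construction the same 0.103, 0.038, 0.129 and 0.037. The numbers showed no pairing: correlations of deviations ran from -0.018 to 0.20, and 2 of 5 tumours matched their own number best. Probes called at Grik2 and Epha7 went from 3 and 1 to 18 and 13 with normexp and to 6 and 5 with the replicate block. For Epha7 they went to 0 with only probes above background and to 2 with slide as a random block, where Grik2 had 4. Leaving out 1 tumour gave interval differences from 0.090 to 0.112 (Grik2) and 0.110 to 0.140 (Epha7), less flanks from 0.027 to 0.046 and 0.028 to 0.042. Called probes then ran from 1 (without Ikzf1+/- tumour 1) to 8 (without Ikzf1+/+ tumour 3) at Grik2 and from 1 to 3 (without Ikzf1+/+ tumour 4) at Epha7. Without these tumours in turn, 0.0254%, 0.185% and 0.0549% of all autosomal probes were called. No window was called at either gene (0) under any alternative run. Tumours with a call at Epha7 fell from 4 to 2 at a threshold of 0.5 and to 0 with normexp. At Grik2 they ran from 4 to 6. With a threshold of 0.2 the longest call grew from 4.31 to 667 kb at Epha7 and from 1.46 to 33.4 kb at Grik2. With 5 arrays a genotype and 425 Grik2 and 158 Epha7 probes not well above background on every array, small losses on dim probes had limited support.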

Other observations

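Outside the planned comparisons, 1 stretch of Grik2 stood apart in brightness. From 49498276 to 49500587 (2.31 kb) it held 14 probes with a median Cy3 intensity of 324, and 71.4% of them were shorter than 60 bases. With the processed signals it lay at -0.15, -0.0084, 0.039, -0.083 and 0.012 in Ikzf1+/+ and at 0.065, -0.0076, 0.034, 0.033 and 0.060 in Ikzf1+/- tumours, which overlap. After normexp the same probes lay at -0.42, -0.14, 0.12, -0.28 and 0.15 in Ikzf1+/+ and between 0.21 and 0.32 in Ikzf1+/- tumours. Losses were then called there in Ikzf1+/+ tumours 1 and 4 and gains in Ikzf1+/- tumours 1 and 2. These were the 4 segments called at Grik2 under normexp.

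Runs of 5 consecutive probes below -0.5 made up 1.00% to 4.39% of runs at Grik2 and 0.697% to 4.68% at Epha7 in the Ikzf1+/+ tumours, against 0.061% to 0.20% over the autosomes. In the Ikzf1+/- tumours they made up at most 0.20% at Grik2 and 0% at Epha7, against up to 0.10% over the autosomes. The lowest run was -1.05 at Grik2, in Ikzf1+/+ tumour 2, and -1.07 at Epha7, in Ikzf1+/+ tumour 1. Among Ikzf1+/- tumours the lowest was -0.83 at Grik2 and -0.49 at Epha7, both in tumour 5. Runs overlap, so neighbouring runs share probes. The limit of -0.5 was the same on every array, while the SD over autosomal probes averaged 0.245 in Ikzf1+/+ and 0.198 in Ikzf1+/- tumours. The part of this spread in the runs was not tested.

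By probe length, Ikzf1+/+ tumours averaged -0.127 ± 0.038 over 2002 Grik2 probes of 60 bases and -0.072 ± 0.029 over 505 shorter ones (SD, n = 5). At Epha7 they averaged -0.163 ± 0.052 over 737 probes and -0.107 ± 0.037 over 271 shorter ones. All shorter autosomal probes averaged 0.013 ± 0.0099 in those tumours.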
